A study of Mus musculus with 3 samples.

Results

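The type I interferon-stimulated genes described here were 40 genes chosen by name as textbook targets of interferon α and β, and all 40 were found among the 33696 genes of the count tables. They were followed in intratumoral T cells from 3 treatment groups, with 3 questions: how far each gene differed between the groups, how a summed module score was spread over single cells read to the same depth, and whether a difference lay in few high cells or in a shift of all cells. The cells were Thy1.1+CD8+ T cells from pmel-1 mice, which carry Tg(TcraTcrb)8Rest/J on B6.Cg-Thy1a/Cy, and in which a transgenic receptor recognizes the melanoma antigen gp100. They were preconditioned in culture with gp100 peptide and 10 nM of sIL-2, of IL-2/21-Trikine, or of sIL-2 + IL-21. sIL-2 is an IL-2 with raised affinity for IL-2Rβ, and IL-2/21-Trikine, called the Trikine below, is sIL-2 joined to an IL-21 mutant that binds IL-21Rα without signaling by itself. The group preconditioned with sIL-2 + IL-21 is called the combination. On day 5 after B16F10 melanoma cells were placed under the skin, Thy1.2+ C57BL/6J mice of 5 to 6 weeks of age received 6 Gy of irradiation and the preconditioned cells. They were then given 4 intraperitoneal doses of 2.5 μg, as the Trikine in the Trikine group and as sIL-2 in both other groups. The sIL-2 group and the combination group therefore shared the cytokine given in vivo and differed in the cytokine used before transfer. Tumors were taken on day 18, and live Thy1.1+CD8+ cells were sorted and sequenced in 1 library per group.

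Type I interferons bind the receptor pair IFNAR1 and IFNAR2, whose kinases JAK1 and TYK2 phosphorylate STAT2. STAT2 and IRF9 are parts of the factor ISGF3, which binds interferon-stimulated response elements (ISREs) in promoters and turns on genes that sense viral nucleic acid, block translation, degrade RNA or modify proteins with ISG15. Among the products are STAT2, IRF9, IRF7 and the brake USP18, so the response feeds back on itself. In tumor-infiltrating T cells such genes are known both as a low tonic level and as a strongly induced state of some cells.

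The libraries held 7760 cells with sIL-2, 13299 with the Trikine and 9798 with the combination after quality control, with a median of 12882.5, 10254 and 14055.5 unique molecular identifiers (UMIs, each marking 1 captured RNA molecule) per cell. With 1 library per group, no difference between groups had a replicate check, and no p-value was computed. The 95% intervals in brackets cover counting error only, not variation between mice or, for summed UMIs, between cells. The 3 comparisons share their libraries, so their values are given side by side. The sorted cells carried T cell markers (7 of 7 detected, summed level 4097 to 5034 in CPM, a gene's UMIs scaled to the same total in each library), and 18 to 43 cell barcodes were shared between pairs of libraries, at most 0.436% of the smaller one. Most markers of other cells stood at low levels. The 9 myeloid markers summed to 22.5 CPM with sIL-2, 22.9 with the Trikine and 14.9 with the combination, all 9 above 0 in each library, and the 5 melanoma markers summed to 6.24, 8.82 and 2.22 CPM. Of 3 genes listed for plasmacytoid dendritic cells, *Siglech*, a defining marker, was at 0 UMIs in each library. *Ccr9* had 14, 27 and 20 UMIs, and *Tcf4* stood at 7.64, 7.11 and 13.2 CPM. *Klrb1c*, listed for NK cells, stood at 5.36, 4.28 and 8.40 CPM, and *Pecam1*, listed for endothelium, at 42.9, 39.2 and 32.0 CPM. The 4 hemoglobin genes stood apart with sIL-2 at 68.7 CPM against 0.120 and 0.476, and 1 cell of that library held 3 or more of these UMIs.

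The interferon-stimulated genes stood higher with sIL-2 than with the combination as a group, and most were also higher with the Trikine than with the combination. Summed over the 40 genes, their UMIs made up 2715 CPM with sIL-2, 2488 CPM with the Trikine and 1321 CPM with the combination. A floor of a mean of 5 CPM over the 3 libraries was passed by 34 of the 40, and *Ifit3b*, *Oas1a*, *Oas2*, *Oasl1*, *Oasl2* and *Ifi44* were under it. Of the 34, 34 were higher by more than 0.5 (log2 CPM ratio) with sIL-2 than with the combination and 0 were lower by that much, where 10.1% of the 8824 genes past the floor were higher and 5.79% lower. The median log2 ratio was 1.10 over the members and 0.08 over all genes. For the Trikine over the combination, 26 of 34 were higher and 0 lower, against 3.51% and 3.58% of all genes, with a median of 0.73 for the members. For the Trikine over sIL-2, 0 of 34 were higher and 9 lower, against 2.88% and 5.81% of all genes, with a median of -0.28 for the members and -0.08 for all genes. The order of levels was sIL-2, then the Trikine, then the combination for 32 of the 34 genes. The share of all genes in that order was not counted. The medians of all genes leaned the same way, at 0.08 for sIL-2 over the combination and -0.08 for the Trikine over sIL-2. The exceptions among the 34 were *Ifi27l2a* and *Phf11b*, which were highest with the Trikine. Both have close relatives in the mouse genome, so their counts are less certain. The summed myeloid markers were lowest with the combination as well. Of the single markers, *Cd68* (9.90, 5.39 and 8.21 CPM) and *Cd14* (2.74, 1.64 and 1.93 CPM) were lowest with the Trikine. The others, *Lyz2* (3.17, 5.37 and 1.34 CPM), *Il1b* (6.08, 8.11 and 3.01 CPM), *Csf1r*, *Adgre1*, *C1qa*, *C1qb* and *C1qc*, were highest with the Trikine. Without the 116, 103 and 70 cells that held 3 or more myeloid or melanoma marker UMIs, the medians over the members were 1.10, 0.72 and -0.28 and the counts past the fold were 34, 26 and 9.

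**Figure D1:**
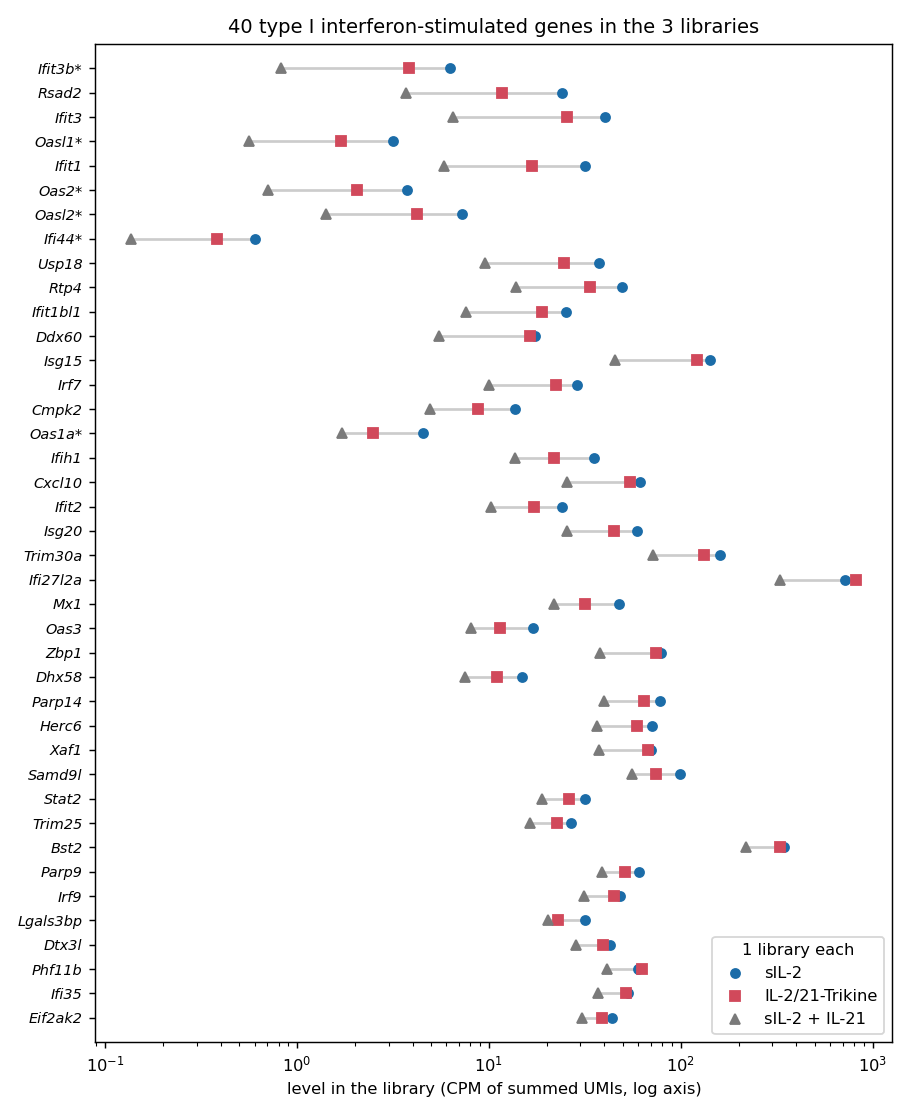
Level of each of the 40 genes in CPM (x axis, logarithmic) in the sIL-2 (circle), Trikine (square) and combination (triangle) libraries, 1 library each, ordered by the ratio of sIL-2 over the combination. An asterisk marks the 6 genes under the floor of a mean of 5 CPM. The triangle is the lowest of the 3 points in every line.

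The IFIT genes, whose products bind viral RNA ends and hold back its translation, differed by more than most. *Ifit3* stood at 40.4 CPM with sIL-2, 25.5 with the Trikine and 6.53 with the combination. *Ifit1* stood at 31.7, 16.8 and 5.86 CPM in the same order. The log2 ratio of sIL-2 over the combination was 2.63 [2.54, 2.72] for *Ifit3* and 2.44 [2.34, 2.54] for *Ifit1*, and that of the Trikine over sIL-2 was -0.66 [-0.72, -0.60] and -0.92 [-0.99, -0.85]. The sIL-2 library was thus the highest and the combination library the lowest for both. *Ifit1bl1* stood at 25.1, 18.9 and 7.63 CPM, *Ifit2* at 23.98, 17.3 and 10.2 CPM, and *Ifit3b*, under the floor, at 6.27, 3.84 and 0.821 CPM. Summed over the 4 IFIT genes past the floor, the log2 ratio was 2.00 [1.96, 2.05] for sIL-2 over the combination, 1.38 [1.33, 1.42] for the Trikine over the combination and -0.63 [-0.66, -0.59] for the Trikine over sIL-2. These genes are related neighbors on chromosome 19. *Ifit3* and *Ifit3b* are near copies, so reads may be split between those genes or lost, and the family sum is firmer than its parts.

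Among the antiviral effectors that act on nucleotides, *Rsad2*, which makes the chain terminator ddhCTP, stood at 23.9 CPM with sIL-2, 11.8 with the Trikine and 3.70 with the combination. Its log2 ratios, 2.70 [2.57, 2.82] for sIL-2 over the combination and -1.03 [-1.11, -0.94] for the Trikine over sIL-2, were the farthest from 0 of the 34 genes past the floor in both comparisons. *Cmpk2*, a nucleotide kinase and its neighbor in the genome, stood at 13.6, 8.80 and 4.94 CPM. *Isg20*, an RNA exonuclease, stood at 59.3, 44.7 and 25.7 CPM. Both were lower with the Trikine than with sIL-2, with log2 ratios of -0.63 [-0.73, -0.53] and -0.41 [-0.45, -0.36]. The OAS family, named for the enzymes that make the second messenger of RNase L, followed the same order at low levels, *Oas3* at 17.1, 11.4 and 8.05 CPM, *Oasl2* at 7.21, 4.23 and 1.41 CPM, *Oas1a* at 4.55, 2.49 and 1.71 CPM, *Oas2* at 3.74, 2.06 and 0.702 CPM, and *Oasl1* at 3.18, 1.70 and 0.559 CPM. *Oas3* was the OAS gene of this family of related sequences past the floor, with log2 ratios of 1.08 [0.99, 1.18] for sIL-2 over the combination and -0.58 [-0.67, -0.49] for the Trikine over sIL-2.

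The ISG15 system held the gene of the ubiquitin-like modifier itself, *Isg15*, at 142 CPM with sIL-2, 121 with the Trikine and 45.6 with the combination. *Usp18*, which removes ISG15 and restrains the receptor, stood at 37.3, 24.6 and 9.52 CPM, and *Herc6*, the mouse ISG15 ligase, at 70.8, 59.1 and 36.7 CPM. The brake thus stood highest where the other members did, with a log2 ratio of 1.97 [1.89, 2.05] for sIL-2 over the combination. For the Trikine over sIL-2, *Usp18* was lower by more than 0.5 on the log2 scale (-0.60 [-0.66, -0.54]) whereas *Isg15* was at -0.23 [-0.26, -0.20] and *Herc6* at -0.26 [-0.30, -0.22].

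Of the 3 transcription factors among the members, *Irf7* differed by more than the member median in each comparison and *Irf9* by less. *Irf7*, which amplifies interferon production, stood at 28.6, 22.4 and 10.1 CPM with sIL-2, the Trikine and the combination, with a log2 ratio of sIL-2 over the combination of 1.51 [1.43, 1.59]. *Stat2* stood at 31.7, 26.1 and 19.0 CPM (0.74 [0.67, 0.80]) and *Irf9* at 48.4, 45.0 and 31.1 CPM (0.64 [0.58, 0.69]). None of the 3 was lower by more than 0.5 with the Trikine than with sIL-2, a fold that 5.81% of all genes passed. Of the sensors and their regulators, *Ifih1*, the RNA sensor MDA5, stood at 35.3, 21.9 and 13.7 CPM and was the one of the 4 past that fold (-0.69 [-0.75, -0.63]). *Dhx58*, the sensor LGP2, stood at 14.8, 11.1 and 7.51 CPM, *Zbp1*, a sensor of Z-form nucleic acid, at 78.9, 73.9 and 37.7 CPM, and *Trim25*, a ubiquitin ligase of RNA sensing, at 26.8, 22.6 and 16.4 CPM.

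The remaining effectors and induced genes spanned the range from steep to shallow. *Mx1*, a dynamin-like GTPase, stood at 47.6, 31.6 and 21.9 CPM in the order sIL-2, the Trikine, the combination, *Rtp4*, a receptor transporter, at 49.2, 33.5 and 13.9 CPM, *Ddx60*, a helicase, at 17.4, 16.5 and 5.48 CPM, and *Cxcl10*, the ligand of CXCR3, at 61.4, 54.2 and 25.4 CPM. *Trim30a* stood at 161, 133 and 71.8 CPM, *Samd9l* at 99.04, 74.7 and 55.7 CPM, *Parp14* at 77.8, 64.6 and 39.6 CPM, *Xaf1* at 69.7, 67.8 and 37.5 CPM, and *Lgals3bp*, a secreted glycoprotein, at 31.6, 23.0 and 20.4 CPM. *Mx1* and *Rtp4* were lower with the Trikine than with sIL-2 by more than 0.5 (-0.59 [-0.64, -0.54] and -0.56 [-0.61, -0.50]), whereas the interval of *Ddx60* reached 0 (-0.08 [-0.16, 0.00]). At the shallow end of sIL-2 over the combination were *Eif2ak2*, the RNA-activated kinase PKR, at 43.6, 39.0 and 30.5 CPM (0.51 [0.46, 0.57]), *Ifi35* at 53.0, 52.0 and 36.8 CPM (0.53 [0.48, 0.58]), *Phf11b* at 59.9, 62.7 and 41.3 CPM (0.54 [0.49, 0.58]), and the partners *Dtx3l* (42.7, 39.2 and 28.4 CPM) and *Parp9* (60.6, 51.2 and 38.8 CPM), an E3 ligase and an ADP-ribosyltransferase that work as a pair. *Ifi44*, under the floor, stood at 0.607, 0.384 and 0.137 CPM.

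The genes *Ifi27l2a*, a small membrane protein, and *Bst2*, the virus-tethering protein tetherin, supplied many of the counted molecules. *Ifi27l2a* stood at 719 CPM with sIL-2, 821 with the Trikine and 329 with the combination, and *Bst2* at 347, 327 and 219 CPM. *Ifi27l2a* was higher with the Trikine than with sIL-2 (log2 ratio 0.19 [0.18, 0.20]), against the order of 32 other genes, and it gave 26.5%, 33.0% and 24.9% of the members' UMIs in the 3 libraries. Sums and scores over the members therefore lean on it, and they are also given below without the 3 genes of most UMIs (*Ifi27l2a*, *Bst2* and *Trim30a*).

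**Figure D2:**
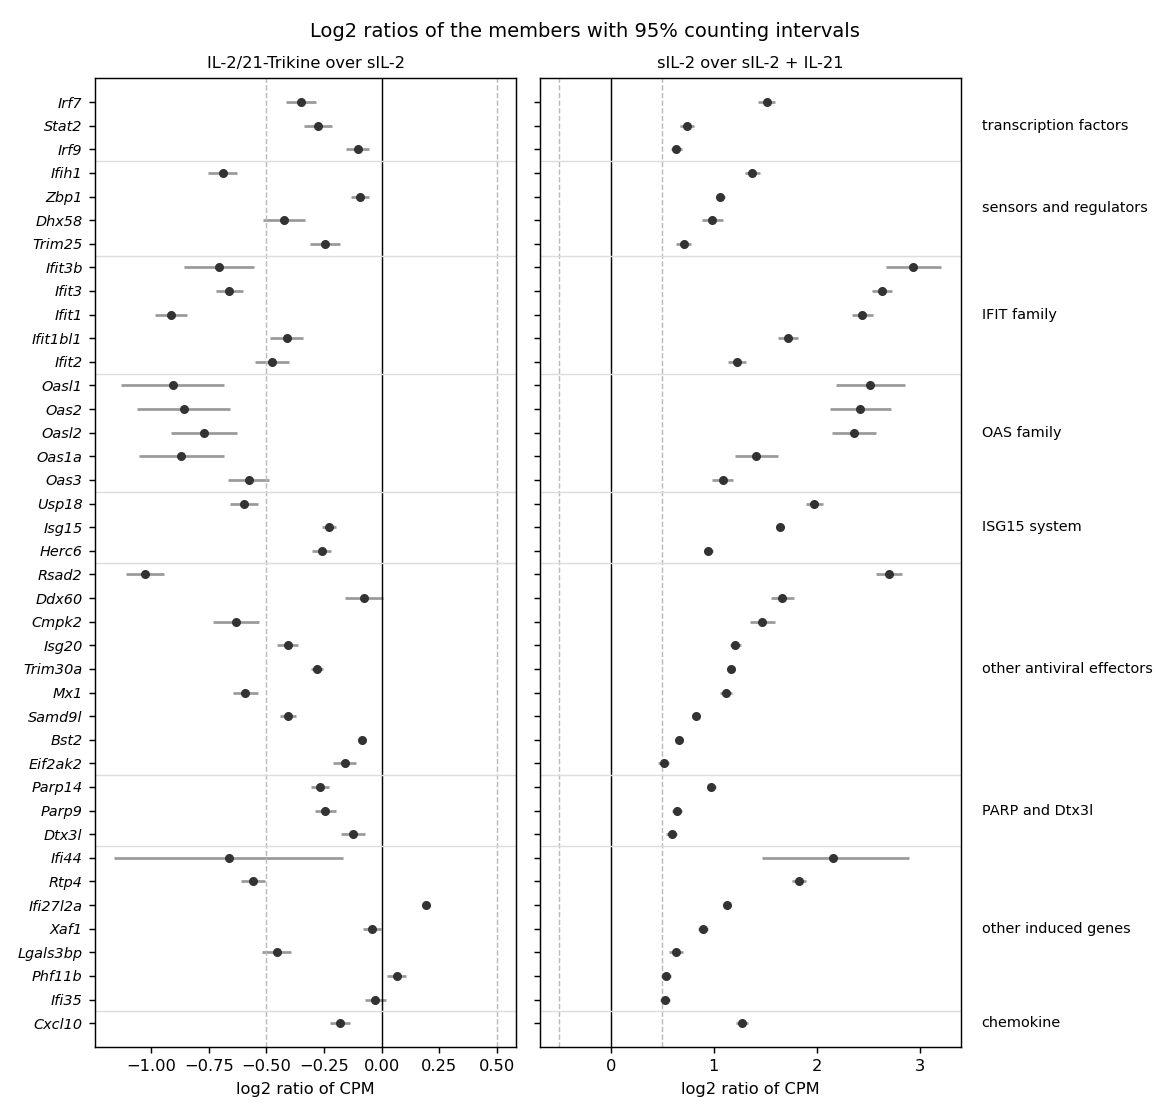
Log2 ratio of CPM for the 40 genes, for the Trikine over sIL-2 (left) and sIL-2 over the combination (right), grouped by role, with 95% intervals of counting error as bars and the fold of 0.5 as dashed lines. On the right all points lie above 0.5; on the left all but *Ifi27l2a* and *Phf11b* lie below 0.

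The promoters of some of these genes are shown with matches to the ISRE, the element that ISGF3 binds. Only promoters with a match are shown, and whether the element bears on the differences between libraries was not tested. RefSeq promoter sequences (250 bases before to 50 bases after the start, GRCm38.p6) were matched for 31 of the 40 genes. The ISRE core was GAAA followed by any 2 bases and again GAAA, searched on both strands. It was present in 16 of the 31 genes (51.6%), counting any promoter of a gene, and in 18 of their 37 promoters. Of all 32851 promoters of the table, 3.44% held it. The members were chosen as known targets, so this share is no independent result. The STAT site TTCNNNGAA, which reads the same on both strands, was present in 6 of 31 genes (19.4%) and in 6 of 37 promoters. It was in 8.30% of all promoters, and 1 member promoter held an ISRE and a STAT match that overlapped. Shown 5′ to 3′ on the strand of the gene, with ISRE matches in capitals, are *Rsad2* (chr12:26456403-26456702, minus strand), *Ifit3* (chr19:34583279-34583578, plus strand), *Ifit1* (chr19:34640639-34640938, plus strand) and *Isg15* (chr4:156200769-156201068, minus strand), 4 genes with a log2 ratio of sIL-2 over the combination of 1.64 or more, and *Bst2* (chr8:71537423-71537722, minus strand), where it was 0.66.
Rsad2: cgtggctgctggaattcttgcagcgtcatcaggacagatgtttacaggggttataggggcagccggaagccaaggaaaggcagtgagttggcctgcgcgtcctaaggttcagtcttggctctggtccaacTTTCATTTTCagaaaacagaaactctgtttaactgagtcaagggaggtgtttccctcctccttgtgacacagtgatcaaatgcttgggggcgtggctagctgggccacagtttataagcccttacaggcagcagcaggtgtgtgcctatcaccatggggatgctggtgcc
Ifit3: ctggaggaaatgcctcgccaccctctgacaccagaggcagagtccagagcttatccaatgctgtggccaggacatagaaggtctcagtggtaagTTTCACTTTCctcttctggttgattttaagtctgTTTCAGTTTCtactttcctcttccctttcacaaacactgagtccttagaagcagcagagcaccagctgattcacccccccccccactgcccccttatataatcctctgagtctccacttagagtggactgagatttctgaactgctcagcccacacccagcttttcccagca
Ifit1: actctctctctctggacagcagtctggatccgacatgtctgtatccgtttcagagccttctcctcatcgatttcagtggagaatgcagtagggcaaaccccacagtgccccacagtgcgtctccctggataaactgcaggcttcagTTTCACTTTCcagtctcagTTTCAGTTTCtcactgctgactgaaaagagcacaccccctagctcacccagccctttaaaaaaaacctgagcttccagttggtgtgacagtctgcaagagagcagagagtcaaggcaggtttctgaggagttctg
Isg15: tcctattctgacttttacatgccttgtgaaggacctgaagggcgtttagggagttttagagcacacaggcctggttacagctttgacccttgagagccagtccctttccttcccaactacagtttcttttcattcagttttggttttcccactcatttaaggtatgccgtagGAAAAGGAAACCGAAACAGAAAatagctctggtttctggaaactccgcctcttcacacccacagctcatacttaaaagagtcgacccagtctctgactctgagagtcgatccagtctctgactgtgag
Bst2: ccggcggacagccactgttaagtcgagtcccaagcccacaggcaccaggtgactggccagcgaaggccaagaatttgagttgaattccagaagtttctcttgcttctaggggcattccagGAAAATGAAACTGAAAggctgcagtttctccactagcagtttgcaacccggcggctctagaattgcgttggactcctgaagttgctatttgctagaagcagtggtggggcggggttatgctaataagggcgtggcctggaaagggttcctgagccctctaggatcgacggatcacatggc

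*Ifit3* and *Ifit1* each carried 2 separate matches, *Isg15* a run of 3 that overlap, *Bst2* 2 that overlap, and *Rsad2* 1. Some shallow genes, such as *Bst2* and *Eif2ak2*, held a match, and some steep ones, such as *Irf7* and *Cmpk2*, held none in this window. Among members past the floor, the median log2 ratio of sIL-2 over the combination was 1.32 in the 14 genes with a match and 0.86 in the 12 without. That of the Trikine over the combination was 0.99 and 0.61, and that of the Trikine over sIL-2 was -0.28 and -0.30.

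To compare single cells, each cell was thinned to 2000 UMIs and the UMIs of the 40 genes were added to a module score. This left out 266 shallower cells with sIL-2, 1775 with the Trikine (13.3% of that library) and 364 with the combination. In these shallow cells the members stood at 3061, 2157 and 1384 CPM, and in the cells kept at 2714, 2492 and 1321 CPM. The mean score was 6.68 with sIL-2, 5.91 with the Trikine and 3.27 with the combination. Most cells held a few such molecules, with a median score of 4, 4 and 2, and the share of cells at 0 was 7.95%, 6.62% and 15.1%. The upper end was longest with sIL-2, with a 90th percentile of 15, 13 and 7 UMIs and a 99th percentile of 42.1, 32.8 and 19. A cell type that should lack these genes was not at hand in the libraries, so the part of free RNA in low scores was not tested.

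For sIL-2 against the combination the score differed in each of 3 bands of cells ranked by score. The ratio of mean scores was 2.05 [2.02, 2.08], and 1.98 [1.95, 2.02] after the 10% of cells with the highest score were taken away from each library. Ranked within each library, the lowest 50% of cells had a ratio of 1.95, the cells from 50% to 90% a ratio of 2.00 and the highest 10% a ratio of 2.15. Without *Ifi27l2a*, *Bst2* and *Trim30a* these 3 ratios were 2.00, 1.94 and 2.45. By this ranking the difference was present in low and high cells, with a larger ratio at the top. The Trikine over the combination gave a ratio of 1.81 [1.78, 1.83], or 1.86 [1.83, 1.89] without the highest 10%. From the low to the high ranks it was 2.04, 1.80 and 1.72 (1.70, 1.62 and 1.77 without the 3 genes). All bands in both comparisons were ranked by the UMIs that were counted. With cells ranked by other members, as given below, both comparisons had a smaller ratio in the low cells than in the high cells.

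For the Trikine against sIL-2 the difference grew toward the high cells. The ratio of mean scores was 0.884 [0.874, 0.894], and 0.937 [0.923, 0.950] without the highest 10% of cells. The lowest 50% of cells had a ratio of 1.04, the cells from 50% to 90% a ratio of 0.904 and the highest 10% a ratio of 0.802. The value above 1 in the low cells was not seen without the 3 genes of most UMIs. With cells ranked and counted by the 37 other genes, the ratios were 0.850, 0.833 and 0.725, and the ratio of means was 0.782 [0.770, 0.794]. The summed score of the 37 other genes was thus lower with the Trikine in each of the 3 bands of cells, and lowest relative to sIL-2 in the high cells, though not each gene was. These bands were ranked by the same UMIs that were counted. With cells ranked by other members, as given below, the low cells of both libraries differed less.

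**Figure D3:**
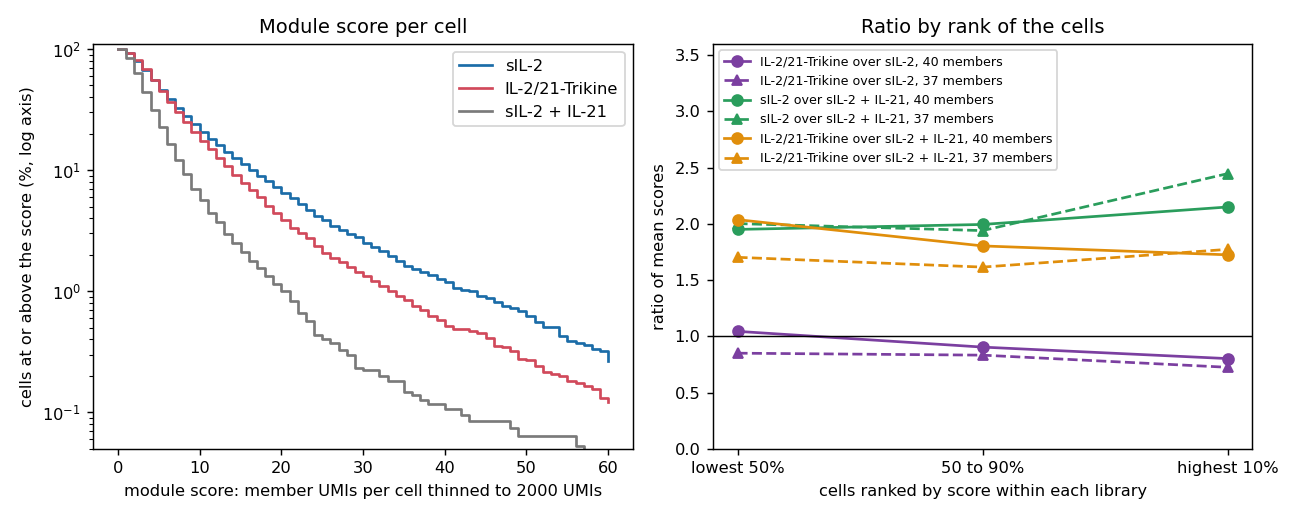
Left, share of cells (y axis, logarithmic, in %) at or above each module score, in member UMIs per cell thinned to 2000 UMIs. Right, ratio of mean scores between libraries in the lowest 50%, the cells from 50 to 90% and the highest 10% of cells, with all 40 genes (circles, solid) and without the 3 genes of most UMIs (triangles, dashed). Cells are ranked by the UMIs that are counted. The ratios of both other libraries over the combination lie above 1.5 throughout.

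A common limit describes the same scores in another form. Cells with 13 or more member UMIs, the score that at most 10% of cells reached when the libraries had equal weight, made up 14.1% [13.36, 14.95] of cells with sIL-2, 10.7% [10.2, 11.3] with the Trikine and 2.99% [2.65, 3.35] with the combination. This class is a range of a score and not a cell type, and 271, 415 and 120 cells lay at the limit or 1 UMI below it. Within it, the mean was 22.6, 20.5 and 19.3 UMIs, and in all other cells 4.06, 4.16 and 2.77 UMIs. When the difference in means between sIL-2 and the combination was divided at this limit, 57.3% fell to the share of high cells. The level within them took 8.26%, and the level in the other cells 34.5%. For the Trikine against the combination the 3 parts were 48.1%, 3.04% and 48.8%. For the Trikine against sIL-2, the mean was lower by 0.776 UMIs. Of this, 76.9% fell to the share of high cells and 34.0% to their level, and the level in the other cells went the other way (-10.9%). A shift of all cells also carries more cells past a fixed limit. The division therefore cannot separate more high cells from such a shift.

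Since a score picks out its own high cells, the genes were also divided by alternating alphabetical order into set A (with *Bst2*, *Cxcl10* and *Ifi27l2a*) and set B (with *Ifit3*, *Isg15* and *Rsad2*), of 20 genes each, and cells were ranked by one set and counted by the other. Ranked by set A, the ratio of sIL-2 over the combination in set B was 1.10 in the lowest 10% of cells and 2.85 in the highest 10%. Ranked by set B, the ratio in set A went from 1.45 to 2.41. The lowest groups hold tied cells: set B was at 0 in the lowest 3 groups of 10% with sIL-2 and with the Trikine and in the lowest 4 with the combination, and set A in the lowest 1, 1 and 2, so that which tied cells fell in the lowest 10% is arbitrary. For the Trikine over the combination, set B went from 1.18 in the lowest 10% to 1.95 in the highest, and set A from 1.64 to 1.96. For the Trikine over sIL-2, set B went from 1.07 in the lowest 10% to 0.685 in the highest, and set A from 1.13 to 0.813. In both orders the differences were smaller among the lowest cells than among the highest. The spread shared by both sets, as the covariance over the product of the means, was 1.42 with sIL-2, 1.12 with the Trikine and 1.17 with the combination, so both sets varied together from cell to cell in each library.

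**Figure D4:**
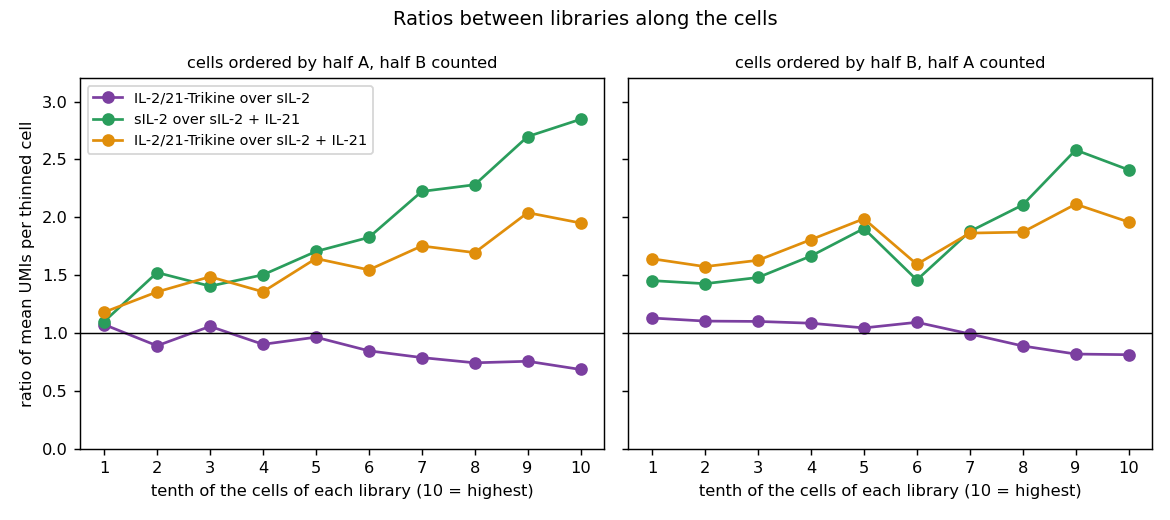
Ratio of mean UMIs per thinned cell between libraries (y axis) in each 10% of the cells (x axis, 10 is the highest), with cells ranked by set A and set B counted (left) and the reverse (right). The ratio of sIL-2 over the combination is 1.10 in the lowest 10% and 2.85 in the highest on the left. On the right it is 1.45 and 2.41, with 2.58 at position 9. It does not rise at every step.

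Single genes differed in how far their molecules sat in few cells. Cells were ranked by the other members, so that a gene did not rank its own cells, and the share of its UMIs in the highest 10% was taken. *Ifit3* had 71.3% [68.4, 74.2] of its UMIs there with sIL-2, 69.7% [66.7, 72.6] with the Trikine and 82.2% [76.8, 86.7] with the combination. *Rsad2* had 67.2%, 64.7% and 74.3%, *Ifit1* 69.9%, 66.0% and 70.8%, and *Cxcl10* 73.4%, 64.0% and 50.1%. For these 4 genes the highest 10% of cells held 50.1% of the molecules or more in each library. *Ifi27l2a* had 19.7%, 19.3% and 22.2% there, *Irf9* 19.6%, 17.9% and 18.5%, *Trim25* 23.9%, 21.3% and 21.3%, and *Bst2* 26.5%, 23.6% and 19.7%, so these were spread more evenly over the cells of each library. *Isg15* lay between, at 53.6%, 49.9% and 51.9%.

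In the lower 50% of cells, ranked by the other members, 35 genes had at least 20 UMIs summed over the 2 libraries of a pair. For sIL-2 over the combination all 35 were above 0, 26 with an interval above 0, and the median log2 ratio was 0.51, against 1.41 in the highest 10%. *Irf9*, the DNA-binding part of ISGF3, stood at 0.83 [0.57, 1.08] in the lower cells and 0.67 [0.33, 1.01] in the highest, and *Rtp4* at 1.68 [1.25, 2.13] and 1.36 [1.11, 1.61], with intervals that overlap. *Bst2* differed by 0.27 [0.17, 0.37] in the lower cells and 1.19 [1.07, 1.31] in the highest. For the Trikine over sIL-2, 21 of the 35 were below 0 and 14 above in the lower cells, with 7 intervals below 0 and 4 above. The median was -0.12, against -0.49 in the highest 10%. For the Trikine over the combination, 33 of the 35 were above 0 and 2 below in the lower cells, with 22 intervals above 0 and 0 below. The median of that comparison was 0.38, against 0.88 in the highest 10%. Shares over all genes were not counted in the lower cells. Over all thinned cells, the median of all genes was 0.08 for sIL-2 over the combination, -0.01 for the Trikine over the combination and -0.10 for the Trikine over sIL-2. The member median of -0.12 in the lower cells was near that -0.10, but the values cover different sets of cells. *Ifi27l2a* was higher with the Trikine in the lower cells (0.29 [0.24, 0.35]), and *Bst2* was higher there (0.11 [0.02, 0.20]) and lower in the highest cells (-0.29 [-0.38, -0.19]).

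The 10% of cells with the highest score in each library were also described by genes that are no members, chosen after their values were seen among 5448 genes with a mean of at least 20 CPM. In all 3 libraries the high cells held more *Slfn5* (log2 ratio over the other cells, 5 CPM added to both, 3.07 with sIL-2, 2.99 with the Trikine and 2.72 with the combination), *Rnf213* (2.48, 2.26 and 2.26) and *Ifi213* (2.25, 2.13 and 2.43), which are interferon-induced too. They held less of the granzymes *Gzmd* (-1.88, -2.12 and -2.07) and *Gzmc* (-1.88, -1.11 and -1.41), the metallothionein *Mt1* (-1.46, -1.39 and -2.22), the chemokine *Xcl1* (-1.61, -1.42 and -1.19), and the replication genes *Uhrf1* (-1.46, -1.30 and -1.20) and *Lig1* (-1.46, -1.15 and -1.08). These are single genes picked for their values, and no list of their kinds was examined.

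To see whether the differences held within kinds of cells, cells of the 3 libraries were clustered without the members and other interferon-induced genes, 177 genes in all. This gave 15 clusters, of which 10 had at least 100 cells in every library. Cluster 6 was the shallowest of the 10, with a median of 1267 UMIs per cell and 9.58% mitochondrial UMIs. Members were among the leading genes all the same: cluster 1 was led by *Ifit3*, *Ifit1*, *Cxcl10*, *Rsad2* and *S1pr1*, with 5537 CPM of members with sIL-2, 5123 with the Trikine and 3426 with the combination. It held 17.8%, 8.55% and 5.47% of the cells. Cluster 7, led by *Aff3*, *Cmah*, *Tcf7*, *Ifit3* and *BE692007*, had 4117, 3248 and 2031 CPM, the next highest level with sIL-2 among these 10 clusters, and held 6.97%, 8.15% and 1.79% of the cells. Cluster 15, one of the 5 smaller ones, led by *Cxcl2*, *Il1b*, *Lyz2*, *S100a9* and *S100a8*, had 5871, 3254 and 1873 CPM of members in 38, 95 and 27 cells. Of the 10 clusters, members were lowest with sIL-2 and with the Trikine in cluster 12, led by *Gzmg*, *Gzmd*, *Gzmf*, *Gzme* and *Prf1*, with 1191, 1465 and 1065 CPM. With the combination they were lowest in cluster 5, led by *Il2*, *Il3*, *Crabp2*, *Ccl3* and *Ccl4*, with 1937, 1810 and 1048 CPM. Cluster 12 held 4.20%, 2.78% and 21.0% of the cells. The libraries thus differed in how many cells lay in clusters of high and of low level.

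Within the clusters, sIL-2 over the combination was above 1 in 10 of 10 and ranged from 1.12 in cluster 12 to 2.03 in cluster 7. The Trikine over the combination was above 1 in 10 of 10 as well, from 1.38 to 1.79. With each cluster at the same weight in every library, these ratios were 1.54 [1.53, 1.55] and 1.58 [1.57, 1.59], against 2.06 and 1.91 over the same cells without weights. The Trikine over sIL-2 was above 1 in 5 clusters and below 1 in 5, from 0.789 in cluster 7 to 1.23 in cluster 12, and at equal weights it was 1.02 [1.02, 1.03], against 0.923 without weights. Without *Ifi27l2a*, *Bst2* and *Trim30a* it was 0.919 [0.913, 0.926] at equal weights and below 1 in 8 of 10 clusters. With coarser clusters (resolution 0.5) and all 40 genes it was 0.994. The direction between the Trikine and sIL-2 at equal weights thus turned with those 3 genes and with the resolution, whereas both other comparisons kept theirs (1.60 and 1.47). Without the shallow cluster 6, the other 9 clusters gave 1.54 for sIL-2 over the combination. They gave 1.58 for the Trikine over the combination and 1.03 for the Trikine over sIL-2. In cluster 7 all 37 members at 5 CPM or more were lower with the Trikine than with sIL-2 (median log2 ratio -0.54, 1 CPM added), and in cluster 3, led by *Cd81*, *Plk2*, *Tnfsf4*, *Cd83* and *Ccr7*, 15 of 34 were lower (median 0.02). These were the lowest and the highest median of the 10 clusters. The medians next to them were -0.28 in cluster 6 and -0.02 in cluster 2. In cluster 12, where the summed ratio was 1.23, the median was -0.05. Shares over all genes were not counted within clusters.

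**Figure D5:**
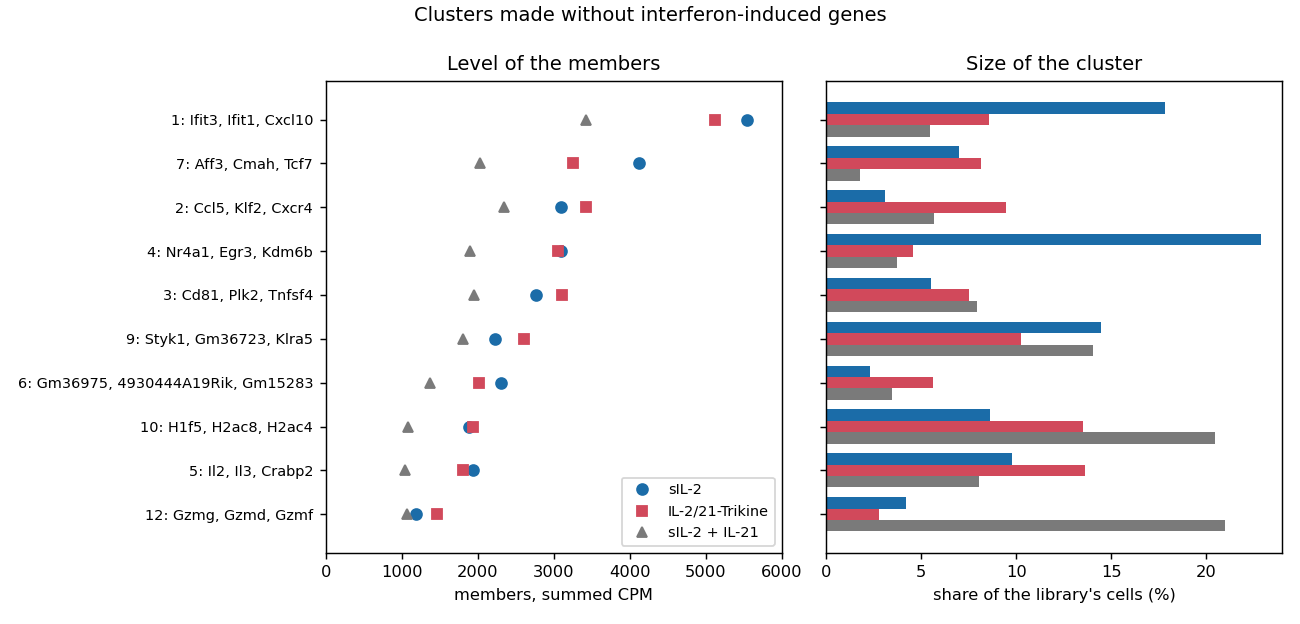
Summed CPM of the 40 genes (left) and share of each library's cells (right, bars from 0, in %) in the 10 clusters with at least 100 cells in every library, named by number and leading genes. The combination library (triangle) is the lowest in every cluster, and cluster 1 holds 17.8% of sIL-2 cells.

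Of the pathway around the members, the 4 ligands of the type I receptor that were looked up were at or near 0 in these cells, and other interferon α genes were not examined. *Ifnb1* and *Ifna4* had 0 UMIs in each library, a count that allows up to 3 UMIs, *Ifnk* had 1 UMI with the Trikine and 0 in both other libraries, and *Ifne* had 2, 3 and 1. *Ifng*, the type II interferon that activated T cells make, stood at 875 CPM with sIL-2, 617 with the Trikine and 665 with the combination. The receptor genes *Ifnar1* (104, 104 and 86.5 CPM) and *Ifnar2* (77.1, 81.9 and 58.8 CPM) were present in each library. Of the 4 receptor genes past the floor, 0 differed by more than 0.5 in any comparison. Of all genes, 2.88% to 10.1% were higher and 3.58% to 5.81% lower, so 0 of 4 is near those shares. Of 14 kinases and factors, 5 were higher by that fold with sIL-2 than with the combination and 0 lower, against 10.1% and 5.79% of all genes, among them *Jak2* (182, 108 and 81.2 CPM, log2 ratio 1.16 [1.13, 1.19]). With the Trikine, 2 of the 14 were lower than with sIL-2 (5.81% of all genes), *Jak2* (-0.75) and *Irf5* (-0.64), and *Irf1* stood at 145, 174 and 123 CPM. Among the sensors, *Rigi*, which interferon induces, stood at 50.3, 38.6 and 27.7 CPM, whereas *Cgas* (17.9, 22.4 and 21.5 CPM) and *Sting1* (35.4, 41.0 and 38.3 CPM) were lowest with sIL-2. Of the brakes, *Socs1* stood at 134, 117 and 134 CPM and *Socs3*, which STAT3 induces, at 12.5, 6.97 and 7.81 CPM.

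Genes that interferon γ induces strongly, some of which answer to type I interferon as well, are given beside the members. Of 16 such genes, 14 passed the floor. With sIL-2 over the combination, 8 of the 14 were higher by more than 0.5 and 0 lower, against 10.1% and 5.79% of all genes, with a median log2 ratio of 0.55. The immunity-related GTPases *Iigp1* (13.9, 8.16 and 4.46 CPM, 1.64 [1.52, 1.77]) and *Irgm1* (43.4, 33.3 and 21.7 CPM, 0.998 [0.94, 1.06]) were the highest, and the immunoproteasome genes *Psmb8* (384, 406 and 397 CPM) and *Psmb9* (307, 353 and 326 CPM) had log2 ratios of -0.05 and -0.09. For the Trikine over the combination 6 were higher and 0 lower (3.51% and 3.58% of all genes), with a median of 0.42. The median for the Trikine over sIL-2 was -0.17, with 0 higher and 1 lower (2.88% and 5.81% of all genes). The medians of the 34 members in the same comparisons were 1.10, 0.73 and -0.28, and the difference between the lists was not tested.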

How the data were processed

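Single-cell 3' RNA was measured in 1 library per treatment group. Unnormalized UMI counts of each gene in each cell were deposited by the authors, who used Cell Ranger 9.0.0 and counted intronic reads. The study's methods name the genome GRCm39, whereas the submitters' processing notes list mm10, so no coordinate was taken for the counted genes. Promoters came from a RefSeq table of GRCm38.p6. The members and gene lists were chosen with earlier results of these data known.

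The limits of the methods (500 to 120000 UMIs, at most 20% mitochondrial UMIs) kept 30857 of 31026 cells, 1 cell more in the combination library than the methods state. No doublet caller was run, and the deepest 5% of cells were removed as an alternative. UMIs were summed per library and scaled to CPM, for 130200802, 166772854 and 168041089 UMIs in the sIL-2, Trikine and combination libraries. Ratios carry exact 95% Clopper-Pearson intervals of 2 counts. On simulated data they held the simulated ratio in 94.7% to 95.3% of 8824 genes per comparison. The simulated counts had counting error only, as the intervals assume, so this checks the calculation and not the spread between cells or mice. The intervals at equal cluster weights are approximate, on the log scale. A gene was called past a log2 ratio of 0.5 at a mean of at least 5 CPM. Cells were thinned without replacement to 2000 UMIs. Clusters came from 2000 variable genes, 50 principal components, 20 neighbors and Leiden resolution 1. Every member was accounted for by role, and other named genes were the pathway, interferon γ and marker lists and each cluster's 5 leading genes. Genes named for their level in high cells were chosen after their values were seen. The alternatives changed the normalization, floor, fold, depth, cell filters, members and clustering. Python 3.11.15, scanpy 1.11.5, scipy 1.17.1, numpy 2.4.6, igraph 0.11.9, pandas 2.3.3, matplotlib 3.10.9 and scikit-learn 1.9.0 were used. The number of mice behind each library was not given in the sources used here.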

Additional observations from a re-analysis of the deposited data

Results flagged for a closer look

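Cells outside the quality limits, which entered no comparison, also held member UMIs. The members stood at 2619 CPM in the 45 such cells with sIL-2, 1972 CPM in the 51 with the Trikine and 951 CPM in the 73 with the combination. In the cells kept they stood at 2715, 2488 and 1321 CPM, so the order of the libraries was the same outside the limits.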

How the results depend on the processing

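Of 159 alternatives, 110 stayed within 1.5 times the count or within the counting error, 47 moved further and 2 turned the direction. Both of the latter concern the Trikine over sIL-2 within clusters at equal weights (1.02), which was 0.994 at resolution 0.5 and 0.919 without *Ifi27l2a*, *Bst2* and *Trim30a* (an alternative chosen after seeing the data). It was 1.04 at resolution 1.5 and 1.08 with interferon-induced genes kept in the clustering. The causes were not tested. The ratio of sIL-2 over the combination within clusters was 1.63 at resolution 0.5, 1.49 at resolution 1.5, 1.60 without the 3 genes and 1.35 with interferon-induced genes kept in, and that of the Trikine over the combination was 1.62, 1.55, 1.47 and 1.46.

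The median log2 ratio of the Trikine over sIL-2 was -0.21 with median-ratio size factors and -0.21 without mitochondrial and ribosomal protein genes, -0.37 with each cell at equal weight and -0.37 with thinned cells, -0.41 with no floor and -0.23 with a floor of 50 CPM. That of sIL-2 over the combination was 1.03 with size factors, 1.19 with no floor and 0.95 with a floor of 50 CPM, and that of the Trikine over the combination was 0.82 with no floor. The number of members lower with the Trikine than with sIL-2 was 14 of 36 with cells at equal weight, 15 of 40 with no floor, 0 of 11 with a floor of 50 CPM and 1 of 34 at a log2 fold of 1, where 5.43%, 19.2%, 5.05% and 0.827% of all genes were lower. The number higher with sIL-2 than with the combination was 11 of 11 with a floor of 50 CPM (10.9% of all genes) and 19 of 34 at a log2 fold of 1 (1.56%), and with the Trikine than with the combination 9 of 11 (2.996%) and 11 of 34 (0.714%).

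The score ratio of the Trikine over sIL-2 was 0.862 at 1000 UMIs, 0.859 at 5000 UMIs and 0.782 without the 3 genes. Without high cells it was 0.900 at 1000 UMIs, 0.912 at 5000 UMIs, 0.923 with another seed, 0.836 without the 3 genes, 0.914 with the highest 5% of cells taken away and 0.980 with the highest 25%. The ratio of sIL-2 over the combination was 2.09 at 5000 UMIs and 2.17 without the 3 genes, and 1.94 with the highest 25% taken away. The ratio of the Trikine over the combination was 1.76 at 1000 UMIs and 1.69 without the 3 genes. Without high cells it was 1.81 at 1000 UMIs, 1.82 at 5000 UMIs, 1.83 with another seed, 1.63 without the 3 genes and 1.90 with the highest 25% taken away. The direction of each median, of each ratio of mean scores and of each ratio without high cells was the same in all alternatives run, whereas the ratio of the Trikine over sIL-2 in the lowest 50% of cells turned from 1.04 to 0.850 without the 3 genes. With 1 library per group, depth limits only the counting error, and differences between mice or preparations cannot be told apart from those between groups. No paired analysis was possible because each group had 1 library.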
